A study of Mus musculus with 7 samples.

Results

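Genes that encode ligands and receptors of the TGF-β and PDGF pathways were followed across the cell classes of mouse mammary tumors, to ask which cells carried the ligand mRNAs and which carried the receptor mRNAs. They were taken by symbol, by a rule that used no level: Tgfb1, Tgfb2, Tgfb3, Tgfbr1, Tgfbr2, Tgfbr3, Pdgfa, Pdgfb, Pdgfra and Pdgfrb, which are 10 of the 33710 genes in the matrices. All 10 passed the filter for the tests, a total of at least 50 UMIs. Positions are given in build GRCm38 with GENCODE annotation. Exons of Tgfb2, Tgfb3, Pdgfa and Pdgfra overlap genes on the other strand, and those of Tgfbr3 and Pdgfra also small genes on the same strand, so a part of their UMIs may belong to these. The study profiled dissociated tumors by Drop-seq, a droplet method that counts mRNA molecules by unique molecular identifiers (UMIs) in single cells. The 7 tumors were all controls: MMTV-PyMT; HK2 f/f mice, labeled as wild type. The labels place sampling 3 months after a tumor became palpable, while the methods of the study describe sampling near the tumor size endpoint, and which holds for these tumors was not settled. In MMTV-PyMT mice the mammary tumor virus promoter drives the polyoma middle T oncogene in mammary epithelium. The mice carried floxed alleles of hexokinase 2 (Hk2), and by the methods of the study the control animals were also given tamoxifen. All comparisons are therefore between cell classes of the same tumors and none is between genotypes. The titles fall into 2 series, CB for replicates 1 to 4 and WT for replicates 5, 7 and 8, and the meaning of these letters was not given.

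TGF-β ligands are secreted in a latent form and signal once they are released from it. The active ligand binds the type II receptor Tgfbr2, which brings in and activates the type I receptor Tgfbr1, and SMAD proteins carry the signal to the nucleus. Tgfbr3, or betaglycan, is a co-receptor that presents ligand, above all TGF-β2. PDGF ligands are dimers that activate receptor tyrosine kinases: the A chain binds Pdgfra, and the B chain binds both Pdgfra and Pdgfrb. In tumors these pathways are known for their action on fibroblasts and on the pericytes of blood vessels.

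The matrices held 37000 barcodes, of which 15047 had 200 to 6000 genes and were kept as cells, 1133 to 4780 per tumor. The kept cells of a tumor summed to 962677 to 4471473 UMIs, with a median of 527 to 694 UMIs per cell. Cells were gated by marker genes that included none of the 10 genes or their pathway, and 11768 cells (78.2%) fell in 7 classes: 6232 tumor, 881 hormone-sensing, 134 basal keratin, 993 fibroblast, 96 endothelial, 1713 macrophage and 1719 T/NK cells. UMIs were summed per mouse and class where a mouse had at least 10 cells of the class and scaled to the same total in every sum (CPM), and only replicates 4, 5 and 8 reached that number for endothelial cells (19 to 38 cells and 16372 to 27185 UMIs). A single UMI there weighed 36.8 to 61.1 CPM. Of the barcodes, 5 were shared between 2 libraries. The T/NK sum of replicate 8 was also small (10 cells, 4751 UMIs). In every class each marker of its own list was detected. The gate for myoepithelial cells did not hold to that name: its cells had a median of 35 tumor marker UMIs against 5 of its own markers, and the milk gene Csn3 stood at 13139 CPM there and 26367 CPM in tumor cells. These cells are called basal keratin cells here. The tumor markers were PYMT, Csn3, Wfdc18, Lalba, Plet1, Muc15, Folr1, Ltf and Elf5. In tumor cells 202033 of their 415827 UMIs were Csn3 and 14631 were PYMT, so these sums reflect milk transcripts more than the oncogene. PYMT itself stood at 1910 CPM in tumor cells, 717 CPM in basal keratin cells and 295 CPM in hormone-sensing cells. Of the 134, 65 had few tumor marker UMIs, and 48 lay in a cluster led by the smooth muscle genes Mylk, Acta2 and Cnn1. Summed tumor markers ranged from 9780 to 47983 CPM over the basal keratin sums, against 564 to 3480 CPM in fibroblasts and 365 to 3884 CPM in macrophages. Hormone-sensing sums lay between, at 2644 to 9513 CPM. Pooled, those cells held 5169 CPM of tumor markers and 5477 CPM of their own. Without cells rich in tumor markers outside the tumor class, the basal keratin calls of Tgfb3 and Pdgfb were lost, with values below. The 65 basal keratin cells left there were too few for all 7 mice to reach 10 cells.

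The promoters of 3 of the genes are shown because these genes had the patterns the results turn on: Tgfb1, the ligand highest in leukocytes, and Pdgfra and Tgfbr2, the receptors highest in fibroblasts in every mouse. Each run is the 250 bases before the RefSeq transcript start, from 5′ to 3′ on the gene's own strand in build GRCm38.p6. They lie at chr7:25686752-25687001 (plus strand) for Tgfb1, chr5:75152001-75152250 (plus strand) for Pdgfra and chr9:116175364-116175613 (minus strand) for Tgfbr2. Capitals mark the letters of any of 4 motifs searched on both strands.
Tgfb1: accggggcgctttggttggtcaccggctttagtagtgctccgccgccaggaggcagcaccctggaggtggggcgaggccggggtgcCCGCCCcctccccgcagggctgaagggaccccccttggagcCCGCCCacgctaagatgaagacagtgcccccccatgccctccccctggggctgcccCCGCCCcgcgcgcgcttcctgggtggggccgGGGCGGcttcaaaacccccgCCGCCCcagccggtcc
Pdgfra: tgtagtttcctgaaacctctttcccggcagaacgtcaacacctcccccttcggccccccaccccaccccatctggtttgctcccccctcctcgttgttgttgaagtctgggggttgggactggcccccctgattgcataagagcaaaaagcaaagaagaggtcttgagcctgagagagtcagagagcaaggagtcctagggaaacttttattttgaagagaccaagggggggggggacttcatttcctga
Tgfbr2: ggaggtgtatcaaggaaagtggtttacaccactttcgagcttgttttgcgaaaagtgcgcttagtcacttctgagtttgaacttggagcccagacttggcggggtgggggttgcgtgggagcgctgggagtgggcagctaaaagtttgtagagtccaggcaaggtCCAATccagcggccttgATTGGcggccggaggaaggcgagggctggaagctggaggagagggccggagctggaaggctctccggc
The motifs were the GC box GGGCGG, the E-box CAGGTG, the TATA box TATAAA and the CCAAT box CCAAT, none of which contains another. The Tgfb1 run held 5 GC boxes, the Tgfbr2 run held 2 CCAAT boxes, and the Pdgfra run held no match. Of 32851 RefSeq promoters of 300 bases, 35.66% held GGGCGG, 20.21% CAGGTG, 13.62% TATAAA and 37.41% CCAAT. Promoters of 6 of the 10 genes were matched, with 8 windows in all, and CAGGTG was in 0 of the 8. Tgfb3, Tgfbr3, Pdgfb and Pdgfrb were not matched. A match describes letters and not a bound site.

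Each class was compared with the mean of the log2 levels of the other 6 by edgeR's quasi-likelihood test on the sums, blocked by mouse, and p-values were adjusted (Benjamini-Hochberg) over 12786 genes and 7 classes together. A call means an adjusted p under 0.05, and fold changes are given as log2 differences with their standard errors (SE). Of the 70 tests of the 10 genes, 21 (30%) were higher and 11 (15.7%) lower, and over all genes 16.1% of tests were called higher and 5.14% lower. The 10 genes and the pathway list used below were chosen with earlier results of these data known. Their shares beside those of all genes are therefore descriptions and no test of an excess. A property of this test bears on these counts. Where another class holds 0 UMIs of a gene, the mean of the other classes has no lower limit, so no class of that gene other than the empty one can be called lower and calls of higher are made against a mean pulled down by the empty class. This held for 31948 of 89502 tests, none of which was called lower, and it concerned Tgfb3 (0 UMIs in the endothelial sums), Pdgfra (0 in hormone-sensing and endothelial cells) and Pdgfrb (0 in hormone-sensing and T/NK cells). For these 3 genes the size of the difference from the other classes depends on the prior count wherever it is given, and pairs of classes with UMIs in both do not share this limit. With limma on log2(CPM + 10), a test that has no such limit and was added after the data were seen, 15 were higher and 17 lower, among them 15 of the 21 and 8 of the 11 calls of edgeR. Over all genes limma called 8890 tests higher and 8908 lower, where edgeR called 14451 and 4603, so the shift toward lower calls was not particular to the 10 genes.

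All 5 receptors were called higher in fibroblasts, of which the call of Tgfbr1 was lost under several alternatives. The Tgfbr1 level in fibroblasts was at that of barcodes with fewer than 200 genes. In that class 7 of the 10 genes were higher (17.4% of all genes were) and 1 was lower (4.19%), the lower gene being Pdgfb. In basal keratin cells 6 were higher (8.42%) and 0 lower (2.13%). In macrophages 4 were higher (17%) and 2 lower (6.05%), and in tumor cells 2 were higher (29.7%) and 2 lower (3.5%). Hormone-sensing cells had 0 higher (19.6%) and 4 lower (5.48%). T/NK cells had 1 higher (17.8%) and 1 lower (9.64%), and endothelial cells 1 higher (3.14%) and 1 lower (5.01%). The median log2 difference of the 7 genes with UMIs in every class was 1.66 in basal keratin cells, 1.35 in macrophages, 1.02 in fibroblasts and −1.11 in hormone-sensing cells, and over all 10 genes, with fitted values for the other 3, it was 1.71, 0.015, 1.91 and −1.61. Over all genes tested the median was 0.0393, 0.143, 0.176 and 0.352 in the same order. Scaling by library size in place of TMM moved the median of all genes by −0.40 in macrophages, −0.21 in fibroblasts and in tumor cells, 0.25 in basal keratin cells and 0.78 in endothelial cells, and the calls named below are relative to TMM.

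**Figure D1:**
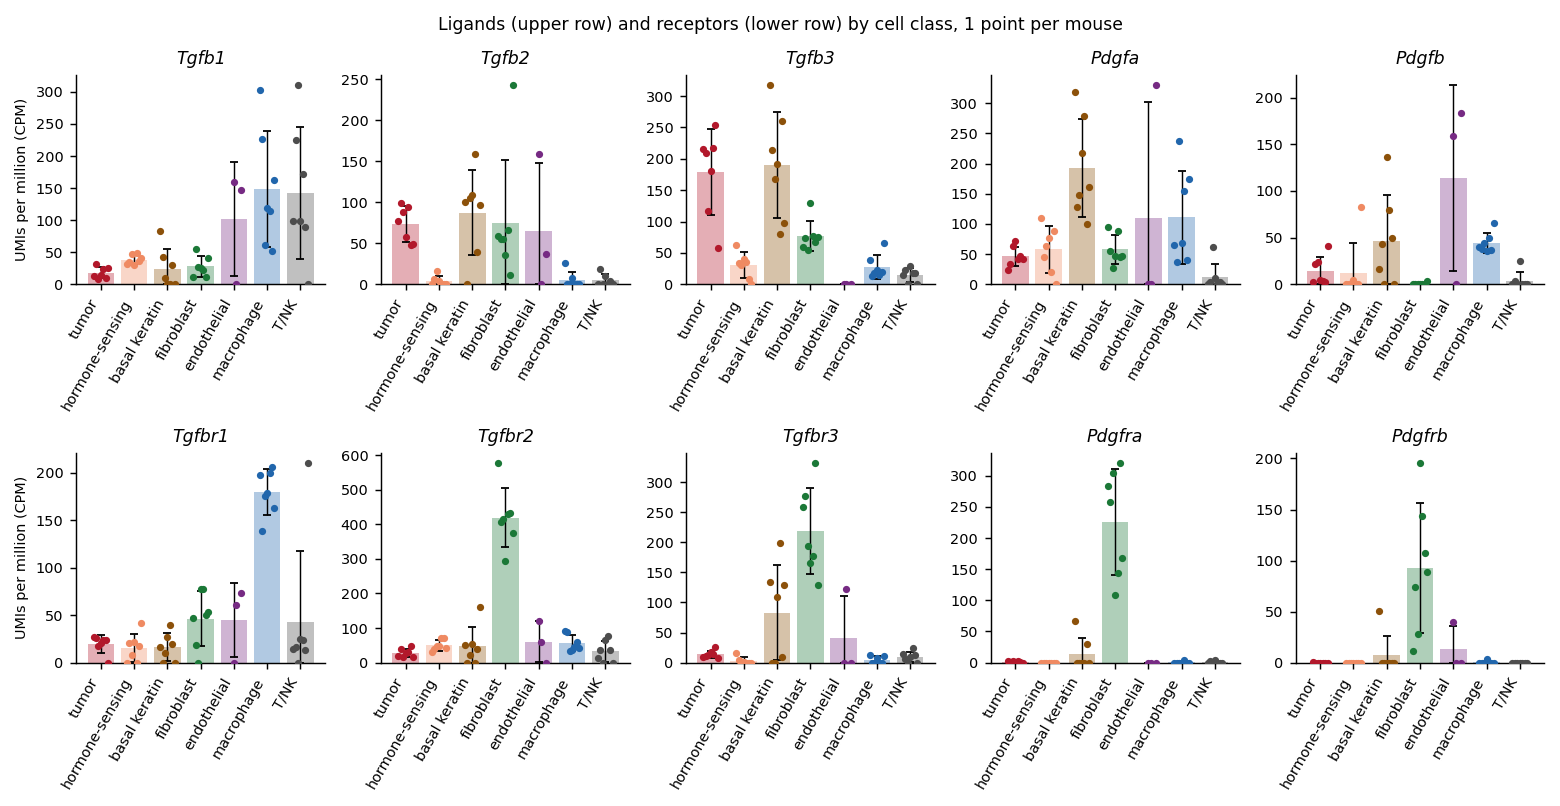
Levels of the 10 genes by cell class, in CPM on a linear axis that starts at 0, with ligands in the upper row and receptors in the lower row. Bars are means over mice, error bars are SDs with the lower end cut at 0, and points are single mice (n = 7, and n = 3 for endothelial cells). The fibroblast bars stand above the rest for Tgfbr2, Tgfbr3, Pdgfra and Pdgfrb, and the macrophage bar for Tgfbr1.

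Among the TGF-β ligands, Tgfb1 was highest in leukocytes. Tgfb1 (chr7:25687002-25705077, plus strand) encodes the isoform best known for suppressing lymphocytes. In macrophages it ranged from 52.6 to 303 CPM over the 7 mice with a median of 119 (mean 149 ± 90.3, SD, 163 UMIs). In T/NK cells it ranged from 0 to 312 CPM with a median of 99.0 (142 ± 102, 151 UMIs). In tumor cells it ranged from 7.86 to 32.4 CPM with a median of 15.3 (18.3 ± 8.96). The macrophage and tumor ranges did not overlap, while the T/NK range reached 0 in replicate 8, whose sum was the small one named above. The class differences were 1.97 in macrophages (SE 0.23, adjusted p = 1.26e-12), 1.76 in T/NK cells (SE 0.25, adjusted p = 3.2e-09) and −1.64 in tumor cells (SE 0.26, adjusted p = 1.6e-07). In macrophages the CB tumors averaged 178 CPM and the WT tumors 110 CPM. A difference between macrophages and T/NK cells was not detectable (0.19, SE 0.27, adjusted p = 0.68), and both lay above the means of hormone-sensing cells (38.4 ± 7.59 CPM), fibroblasts (27.9 ± 15.8) and basal keratin cells (23.9 ± 31.3). By an exact sign-flip test over mice on log2(CPM + 10) the T/NK difference had p = 0.109, and on log2(CPM + 1) the tumor difference had p = 0.0625. The endothelial sums read 102 ± 88.5 CPM from 8 UMIs and were told apart from no neighbor in the order. Barcodes with fewer than 200 genes, taken as a measure of free RNA though this was not tested, held a median of 64.6 CPM of Tgfb1. This level was not reached by 2 of 7 macrophage sums (61.4 and 52.6 CPM) and 1 of 7 T/NK sums. The level of these barcodes ranged from 24.1 to 140 CPM over the 7 matrices. Here and below, sums are set against the median and not against the matrix of the same mouse.

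Tgfb2 and Tgfb3 were called higher in tumor cells, basal keratin cells and fibroblasts. Tgfb2 (chr1:186622792-186705989, minus strand), the isoform that depends most on betaglycan, ranged from 47.6 to 98.7 CPM in tumor cells with a median of 77.4 (73.6 ± 21.6, 544 UMIs). Basal keratin cells read 0 to 159 CPM with a median of 101 (87.3 ± 51.8), and fibroblasts 11.3 to 244 CPM with a median of 55.4 (75.3 ± 76.6). Hormone-sensing cells, macrophages and T/NK cells had medians of 0 and means of 3.86, 4.83 and 4.80 CPM, so that tumor cells lay above all 3 in every mouse. Tgfb2 was higher in tumor cells by 2.07 (SE 0.25, adjusted p = 1.28e-11), in basal keratin cells by 1.71 (SE 0.43, adjusted p = 1.07e-03) and in fibroblasts by 2.03 (SE 0.33, adjusted p = 2.81e-07). It was lower in hormone-sensing cells by −2.51 (SE 0.53, adjusted p = 6.79e-05) and in macrophages by −2.33 (SE 0.59, adjusted p = 1.27e-03). The basal keratin call was lost by the exact sign-flip test over mice on log2(CPM + 10) (1.47, p = 0.0625) and on log2(CPM + 1) (2.39, p = 0.109), and the macrophage call with at least 500 genes per cell (−2.07, adjusted p = 0.0633). The fibroblast call rested on replicate 8, at 244 CPM: without it the difference was 0.95 (adjusted p = 0.0899), and in the CB tumors alone it was 0.70 (adjusted p = 0.416). Basal keratin and tumor cells were not told apart (−0.30, SE 0.37, adjusted p = 0.613), with basal keratin cells the higher in 5 of 7 mice. Fibroblasts and tumor cells were not told apart (−0.03, SE 0.29, adjusted p = 0.969), and fibroblasts were the higher of the pair in 1 of 7 mice.

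Tgfb3 (chr12:86056745-86079041, minus strand), an isoform known from mammary involution and palate fusion, had the most UMIs of the 10 genes. In tumor cells it ranged from 58.0 to 254 CPM with a median of 210 (179 ± 68.1, 1549 UMIs), and 1022 of 6232 tumor cells (16.4%) held a UMI of it. The CB tumors averaged 181 CPM and the WT tumors 176 CPM. Basal keratin cells ranged from 79.5 to 318 CPM with a median of 191 (190 ± 84.8), and fibroblasts from 55.4 to 129 CPM with a median of 73.8 (76.8 ± 24.4). The tumor and fibroblast ranges overlapped, but tumor cells were the higher in 6 of 7 mice, by 1.13 (SE 0.26, adjusted p = 4.06e-04). Fibroblasts lay above hormone-sensing cells (30.4 ± 20.6 CPM) by 1.47 (SE 0.35, adjusted p = 4.38e-04). Basal keratin and tumor cells were not told apart (−0.24, SE 0.26, adjusted p = 0.57), with a fitted sign opposite to that of the mean CPM and basal keratin cells the higher in 6 of 7 mice. When cells rich in tumor markers were left out, the basal keratin level was 49.8 CPM and its difference 0.65 (adjusted p = 0.77). That level is a mean over fewer than 7 mice, from at most 65 cells. Macrophages read 27.5 ± 18.8 and T/NK cells 14.6 ± 11.1 CPM. Both classes lay below the median of 88.1 CPM in barcodes with fewer than 200 genes, as did fibroblasts in 6 of 7 mice. The fibroblast call of higher (1.80, SE 0.45, adjusted p = 1.2e-03) was lost in the CB tumors alone (1.77, adjusted p = 0.0757) and by the exact sign-flip test over mice on log2(CPM + 10) (0.65, p = 0.0625). In CPM fibroblasts averaged 76.8 against 83.2 for the other classes, and were the higher in 3 of 7 mice. The call compares log2 levels, with a mean pulled down by the empty endothelial class. The 3 endothelial sums held 0 UMIs, which allows up to 43.7 CPM by counting error over their 68727 UMIs. The endothelial call of lower (adjusted p = 8.33e-03) was lost without replicate 4 (adjusted p = 0.0889).

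Tgfbr1 was highest in macrophages. It encodes the type I receptor kinase (chr4:47353222-47414931, plus strand). Macrophages ranged from 138 to 207 CPM with a median of 179 (180 ± 23.9, 248 UMIs), the smallest spread relative to its mean among the classes of this gene. Fibroblasts ranged from 0 to 77.3 CPM with a median of 50.7 (46.4 ± 28.6), and tumor cells from 0 to 26.8 CPM with a median of 24.1 (19.9 ± 9.27). The macrophage range overlapped none of these, and T/NK cells reached 210 CPM in replicate 8 from 1 UMI. The CB tumors averaged 173 CPM and the WT tumors 190 CPM in macrophages. Tgfbr1 was higher in macrophages by 3.22 (SE 0.22, adjusted p = 3.8e-26), in 7 of 7 mice, and macrophages lay above fibroblasts by 1.89 (SE 0.29, adjusted p = 2.56e-08). A UMI was seen in 208 of 1713 macrophages (12.1%, median depth 575 UMIs) and in 19 of 1719 T/NK cells (median depth 456 UMIs). Fibroblasts were called higher by 1.02 (SE 0.32, adjusted p = 0.0111) although their mean CPM lay below the mean of the other classes, 46.4 against 53.6, since the test compares log2 levels. Barcodes with fewer than 200 genes held a median of 46.8 CPM of Tgfbr1, the level of fibroblasts. That call was lost without replicate 4 (0.82, adjusted p = 0.131) and with limma (0.32, adjusted p = 0.603). Hormone-sensing cells were lower by −1.11 (SE 0.37, adjusted p = 0.0207), a call lost without replicate 5 (adjusted p = 0.109) or 8 (adjusted p = 0.131).

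Tgfbr2 and Tgfbr3 were highest in fibroblasts. Tgfbr2 (chr9:116084293-116175360, minus strand), the ligand-binding type II receptor kinase, ranged from 294 to 578 CPM in fibroblasts with a median of 415 (419 ± 85.3, 377 UMIs). No other class had a mean above 60.1 CPM, and the highest single sum outside fibroblasts was 162 CPM, in basal keratin cells, so the groups did not overlap. Tgfbr2 was higher in fibroblasts by 3.36 (SE 0.20, adjusted p = 9e-32), with fibroblasts first in 7 of 7 mice, and above macrophages by 2.78 (SE 0.27, adjusted p = 2.6e-16). The CB tumors averaged 423 CPM and the WT tumors 413 CPM in fibroblasts. The remaining 6 classes were not told apart from their neighbors in the order. Tumor cells, the lowest at 15.7 to 47.0 CPM with a median of 27.6, were lower by −1.02 (SE 0.26, adjusted p = 1.54e-03), which was lost without replicate 4 (−0.84, adjusted p = 0.202). Barcodes with fewer than 200 genes held a median of 49.8 CPM of Tgfbr2.

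Tgfbr3 (chr5:107106570-107289629, minus strand) ranged from 130 to 332 CPM in fibroblasts with a median of 194 (219 ± 72.0, 192 UMIs). Basal keratin cells were next, from 0 to 199 CPM with a median of 109 (83.1 ± 79.6, 22 UMIs), and these ranges overlapped. Tumor cells read 14.0 ± 5.96 CPM, macrophages 4.5 ± 5.85 and hormone-sensing cells 3.13 ± 5.75. Fibroblasts were higher by 4.19 (SE 0.27, adjusted p = 1.18e-28) and lay above basal keratin cells by 2.09 (SE 0.38, adjusted p = 2.83e-06). Basal keratin cells were called higher by 1.75 (SE 0.47, adjusted p = 2.66e-03), and this was lost without replicate 1 (1.27, adjusted p = 0.0834). Hormone-sensing cells were lower by −3.07 (SE 0.64, adjusted p = 6.28e-05), and macrophages by −1.94 (SE 0.63, adjusted p = 0.0153), a call lost without the top 5% of cells by UMIs (−1.79, adjusted p = 0.0581). Fibroblasts carried both Tgfbr2 and Tgfbr3. In single fibroblasts a UMI of both was found in 65 of 993 cells, where the product of the single shares gives 41.3. Deeper cells hold more genes, so this count is a description.

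**Figure D2:**
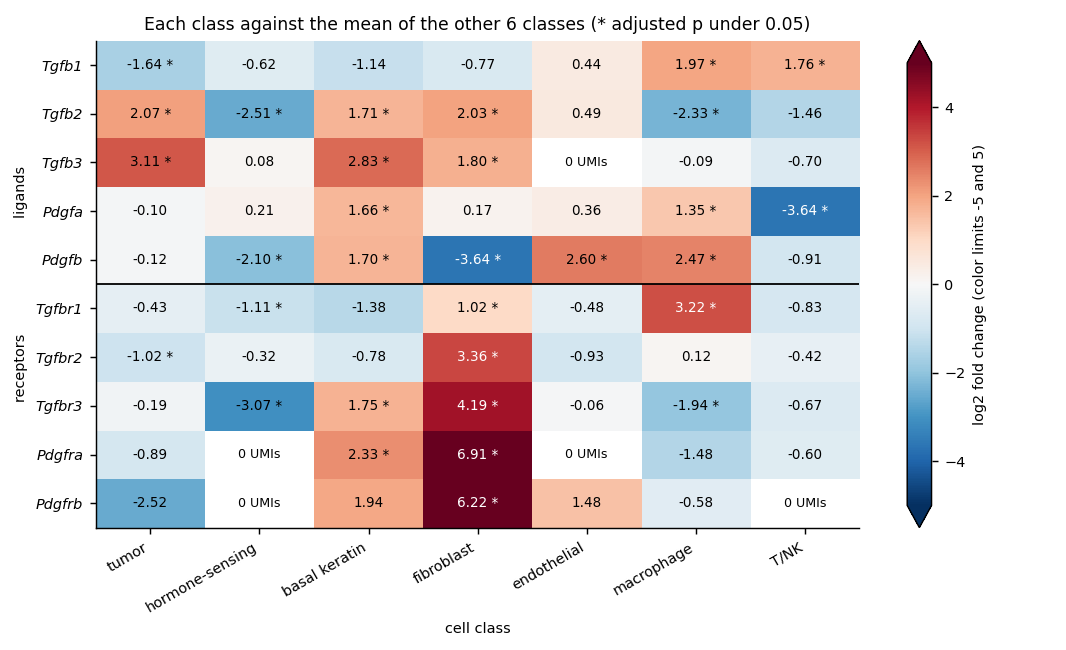
Log2 difference of each class from the mean log2 level of the other 6, for the 10 genes (edgeR, colors limited to −5 and 5), with * for an adjusted p under 0.05 and a mark where a class held 0 UMIs. The fibroblast column holds 7 genes called higher, the macrophage column 4 and the hormone-sensing column 0, and differences of Tgfb3, Pdgfra and Pdgfrb depend on the prior count.

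The PDGF ligands had no single source. Pdgfa (chr5:138976014-138997370, minus strand), the A chain, was highest in basal keratin cells, from 99.8 to 318 CPM with a median of 162 (193 ± 81.2, 66 UMIs). Macrophages ranged from 37.8 to 237 CPM with a median of 69.0 (111 ± 77.3, 129 UMIs), and tumor cells from 23.9 to 71.7 CPM with a median of 42.8 (46.1 ± 16.4). The basal keratin sums lay above tumor cells in 7 of 7 mice and did not overlap them, whereas macrophages overlapped both. The difference was 1.66 in basal keratin cells (SE 0.32, adjusted p = 1.05e-05) and 1.35 in macrophages (SE 0.27, adjusted p = 2.19e-05), and −3.64 in T/NK cells (SE 0.53, adjusted p = 7.45e-09), which held 5 UMIs. Without cells rich in tumor markers the basal keratin level was 336 CPM, a mean over fewer than 7 mice from at most 65 cells. The macrophage call was lost with limma (0.97, adjusted p = 0.0992). By the exact sign-flip test over mice it was lost on log2(CPM + 10) (0.89, exact p = 0.0625). By the exact sign-flip test on log2(CPM + 1) it was kept (1.48, exact p = 0.0156). In CPM, and not in log2 levels, macrophages lay above the mean of the other classes in only 3 of 7 mice. Basal keratin cells and macrophages were not told apart (0.27, SE 0.33, adjusted p = 0.62). The 9 endothelial UMIs all came from replicate 8 (331 CPM). Barcodes with fewer than 200 genes held a median of 45.7 CPM of Pdgfa, a level that 4 of 7 tumor cell sums and 2 of 7 macrophage sums did not reach.

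Pdgfb (chr15:79995874-80014977, minus strand), the B chain that endothelium is known to release toward pericytes, was sparse, with 154 UMIs in the sums. Endothelial cells held 4, 0 and 5 UMIs in replicates 4, 5 and 8, or 159, 0 and 184 CPM (114 ± 99.8, n = 3). Macrophages ranged from 35.4 to 65.2 CPM with a median of 39.5 (44.0 ± 10.6, 55 UMIs), and basal keratin cells from 0 to 137 CPM with a median of 42.8 (46.5 ± 49.0, 14 UMIs). Fibroblasts held 1 UMI in 953148. Macrophages carried it in 7 of 7 mice and endothelial cells in 2 of 3. Pdgfb was higher in macrophages by 2.47 (SE 0.39, adjusted p = 9.98e-08), in endothelial cells by 2.60 (SE 0.78, adjusted p = 7.7e-03) and in basal keratin cells by 1.70 (SE 0.58, adjusted p = 0.0241), and lower in fibroblasts by −3.64 (SE 0.95, adjusted p = 1.87e-03) and in hormone-sensing cells by −2.10 (SE 0.75, adjusted p = 0.0314). Macrophages lay above tumor cells by 2.21 (SE 0.40, adjusted p = 3.14e-06), in 7 of 7 mice. The endothelial call was lost without replicate 4 (adjusted p = 0.0528), without replicate 8 (adjusted p = 0.0605) and with DESeq2 (1.92, adjusted p = 0.177). The basal keratin call was lost without cells rich in tumor markers (1.29, adjusted p = 0.468) and without replicate 1, 4, 5 or 7, and the hormone-sensing call without replicate 2 (adjusted p = 0.0663) or 4 (adjusted p = 0.123).

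UMIs of both PDGF receptors came mostly from fibroblasts. Pdgfra (chr5:75152292-75198215, plus strand), a receptor that marks connective tissue fibroblasts, ranged from 108 to 321 CPM in fibroblasts with a median of 258 (227 ± 85.2, 193 UMIs). Tumor cells ranged from 0 to 2.91 CPM with a median of 1.35 (1.56 ± 1.09, 13 UMIs), and hormone-sensing and endothelial sums held 0 UMIs, which allows up to 1.47 and 43.7 CPM over their summed UMIs. No class overlapped fibroblasts, and the CB and WT tumors averaged 239 and 211 CPM there. Fibroblasts lay above tumor cells by 6.69 (SE 0.35, adjusted p = 4.75e-35) and above basal keratin cells by 3.93 (SE 0.45, adjusted p = 7.63e-13). A UMI was seen in 146 of 993 fibroblasts (14.7%, median depth 702 UMIs) and in 1 of 1713 macrophages (0.0584%). Fibroblast markers summed to up to 8880 CPM in the basal keratin sums (median 636 over 7 mice), and their part in the basal keratin levels of Pdgfra and Tgfbr3 was not tested. The 7 basal keratin UMIs of Pdgfra came from 2 mice (13.9 ± 26.0 CPM), and the call of higher there (adjusted p = 0.0192) was lost without replicate 1 (1.27, adjusted p = 0.305) or 7 (1.79, adjusted p = 0.147) and had the opposite sign with limma (−0.14).

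Pdgfrb (chr18:61045150-61085061, plus strand), known as a receptor of pericytes and fibroblasts, ranged from 11.8 to 196 CPM in fibroblasts with a median of 88.7 (92.6 ± 64.0, 104 UMIs). Tumor cells held 1 UMI, macrophages 2, basal keratin cells 3 and endothelial cells 1, and hormone-sensing and T/NK cells 0. The fibroblast range reached down to those of basal keratin cells, at most 50.3 CPM, and endothelial cells, at most 39.7 CPM. Fibroblasts lay above the mean of the other classes in 7 of 7 mice, by 6.22 (SE 0.39, adjusted p = 1.09e-28, a fitted value that depends on the prior count), and above endothelial cells by 4.06 (SE 0.95, adjusted p = 4.3e-04). With DESeq2 the fibroblast call missed the threshold (5.78, adjusted p = 0.0576). The highest and lowest levels of the 2 receptors fell in different mice. Pdgfrb was highest in replicate 4 (196 CPM), where Pdgfra was lowest (108 CPM), and lowest in replicate 1 (11.8 CPM), where Pdgfra stood at 283 CPM. That lowest level was 1 UMI of 84758, and the 27.7 CPM of replicate 3 was 1 UMI of 36114, so counting error bears on this order. Pericyte markers summed to 103 CPM in the fibroblasts of replicate 4 and to 236 CPM in those of replicate 1, from 20 UMIs each, and their part in these levels was not tested. Both receptors were seen in 15 of 993 fibroblasts, close to the product of the single shares, 13.1. The 23 cells gated by pericyte markers, pooled over 6 mice and not tested, held 18 UMIs of Pdgfrb (758 CPM, exact Poisson 95% interval 449 to 1198, counting error only). They held 0 of Pdgfra, where the limit of 3 UMIs for a count of 0 is 126 CPM and the upper end of the exact interval 155 CPM. These cells held 224 UMIs of pericyte markers and 385 of fibroblast markers, so the class was mixed.

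Among the 7 classes, the top of the order was called for the receptors and not for the ligands. Of 210 pairs of classes, 105 (50%) were called, against 21.9% over all genes. Of the 60 neighbors in the orders, 11 (18.3%) were called, against 7.16% over all genes. The top class was called against the next for Tgfbr1, Tgfbr2, Tgfbr3, Pdgfra and Pdgfrb, and for none of the 5 ligands, that is for 5 of 10 genes, against 17.3% of all genes. By mean CPM basal keratin cells, the class rich in tumor markers, were the top class of Tgfb2, Tgfb3 and Pdgfa. Tumor cells, next for Tgfb3, were called above fibroblasts (1.13, adjusted p = 4.06e-04). The contrast between ligands and receptors thus rests in part on this mixed class. The top class of Pdgfb was endothelial, with 9 UMIs in 3 mice. Pericyte-gated cells were left out of the order. Pooled, they held 758 CPM of Pdgfrb, against 109 CPM in pooled fibroblasts. Fibroblasts were first in 7 of 7 mice for Pdgfra and Tgfbr2 and in 6 of 7 for Pdgfrb and Tgfbr3, and macrophages in 6 of 7 for Tgfbr1. In barcodes with fewer than 200 genes the remaining genes had medians of 33.2 CPM for Tgfb2, 27.6 for Tgfbr3, 12.9 for Pdgfb, 5.49 for Pdgfra and 8.3 for Pdgfrb. Tgfb1 was first in macrophages in 3 mice, in T/NK cells in 3 and in endothelial cells in 1.

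Because tumor cells were numerous, a low level there could still hold many UMIs. Tumor cells held 48.1% of all UMIs, 76.6% of those of Tgfb3, 69.7% of Tgfb2, 40.3% of Pdgfa, 34.1% of Pdgfb and 16.1% of Tgfb1. Fibroblasts held 5.99% of all UMIs and 83.2% of Pdgfra, 71.7% of Pdgfrb, 48.4% of Tgfbr3 and 40.6% of Tgfbr2. Macrophages held 8.45% of all UMIs and 40.8% of Tgfbr1, 30.2% of Pdgfb and 22.1% of Tgfb1. The shares differed between tumors. The shares of single mice were taken of the UMIs in the 7 classes alone, while the pooled shares count all kept cells, unassigned ones included. On that base tumor cells held 6.9% to 91.2% of Tgfb2 (median 84.9%) and 17.5% to 92.1% of Tgfb3 (median 82.9%). Fibroblasts held up to 88.5% and 60%. The pooled shares weigh mice by their cells, and tumor cells made up 14.7% to 67.0% of cells in a tumor.

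**Figure D3:**
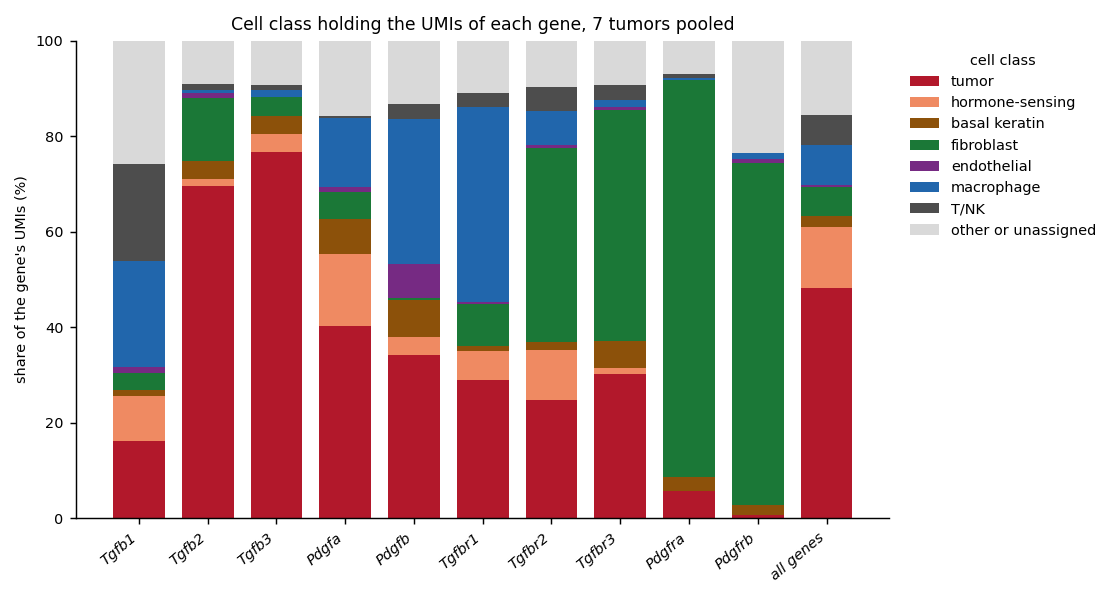
Share of each gene's UMIs found in each cell class, in percent, pooled over the 7 tumors, with all genes together for reference. Tumor cells held 76.6% of Tgfb3 and fibroblasts 83.2% of Pdgfra, against 48.1% and 5.99% of all UMIs.

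Other genes of the 2 pathways were described from a list of 43, of which 42 could be tested (Smad6 had too few UMIs). Over the 7 classes 75 of 294 tests were higher (25.5%, and 16.1% over all genes) and 47 lower (16%, and 5.14%), and with limma 71 were lower. Fibroblasts had 23 of 42 higher (54.8%, and 17.4% over all genes) and 2 lower (4.76%, and 4.19%). Basal keratin cells had 13 higher (31%, and 8.42%) and 2 lower (4.76%, and 2.13%), and macrophages 12 higher (28.6%, and 17%) and 7 lower (16.7%, and 6.05%). Tumor cells had 13 higher, 31% against 29.7% of all genes, so this share was near the background, and 6 lower (14.3%, and 3.5%). Hormone-sensing cells had 5 higher (11.9%, and 19.6%) and 16 lower (38.1%, and 5.48%), T/NK cells 2 higher (4.76%, and 17.8%) and 12 lower (28.6%, and 9.64%), and endothelial cells 7 higher (16.7%, and 3.14%) and 2 lower (4.76%, and 5.01%). The genes listed under latency and activation of TGF-β, not all of which need bind or release it, were higher in fibroblasts for 8 of 11 (17.4% of all genes were). They were led by Fbn1, a fibrillin of the matrix that binds the latent complex (1372 ± 370 CPM in fibroblasts, difference 8.03, adjusted p = 5.09e-63). In basal keratin cells 6 of the 11 were higher (8.42% of all genes), led by Ltbp2, a latent binding protein family member (150 ± 192 CPM, 4.18, adjusted p = 1.58e-12). In hormone-sensing cells 2 were higher (19.6% of all genes) and 4 lower (5.48%), and the largest difference was that of Itgb6, a subunit of an integrin that activates TGF-β (47.2 ± 17.6 CPM, 3.42, adjusted p = 4.53e-10). In endothelial cells Ltbp4 led (188 ± 183 CPM, 4.98, adjusted p = 1.12e-08, 11 UMIs), and fibroblasts held as much of it (196 CPM).

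Of the 3 co-receptor genes, Eng, the endothelial co-receptor endoglin, was higher in endothelial cells (604 ± 175 CPM, n = 3, 6.31, adjusted p = 1.23e-21). Of the 10 intracellular genes tested, Smad7, an inhibitor that TGF-β itself induces, was higher in T/NK cells (280 ± 133 CPM, 2.06, adjusted p = 4.19e-13), and 3 were higher (17.4% of all genes) and 2 lower (4.19%) in fibroblasts. The 5 target genes were higher for 4 in fibroblasts (17.4% of all genes), and lower for all 5 in hormone-sensing cells (5.48%) and 4 of 5 in T/NK cells (9.64%). Tgfbi, a secreted matrix protein induced by TGF-β, led in macrophages (861 ± 244 CPM, 7.19, adjusted p = 2.89e-61), and Ctgf, a matricellular target, in basal keratin cells (214 ± 162 CPM, 3.61, adjusted p = 9.63e-15). Of 7 other PDGF genes and activators, 6 were higher in fibroblasts (17.4% of all genes), led by Lrp1, an endocytic partner of Pdgfrb (596 ± 144 CPM, 6.05, adjusted p = 1.25e-44). Pdgfc, a ligand of Pdgfra, was higher in tumor cells (38.5 ± 17.5 CPM, 2.77, adjusted p = 1.07e-09), and Plau, a protease, in macrophages (394 ± 309 CPM, 4.11, adjusted p = 1.2e-30). Of the 6 genes of PDGF receptor signaling, Pik3r1, a regulatory subunit of PI3 kinase, was higher in tumor cells (554 ± 231 CPM, 1.98, adjusted p = 2.19e-19). The genes named here are at most 2 per class with the largest differences, and Lrp1, Itgb6, Ltbp2, Ltbp4, Eng and Pdgfc each held 0 UMIs in another class, so their differences depend on the prior count.

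**Figure D4:**
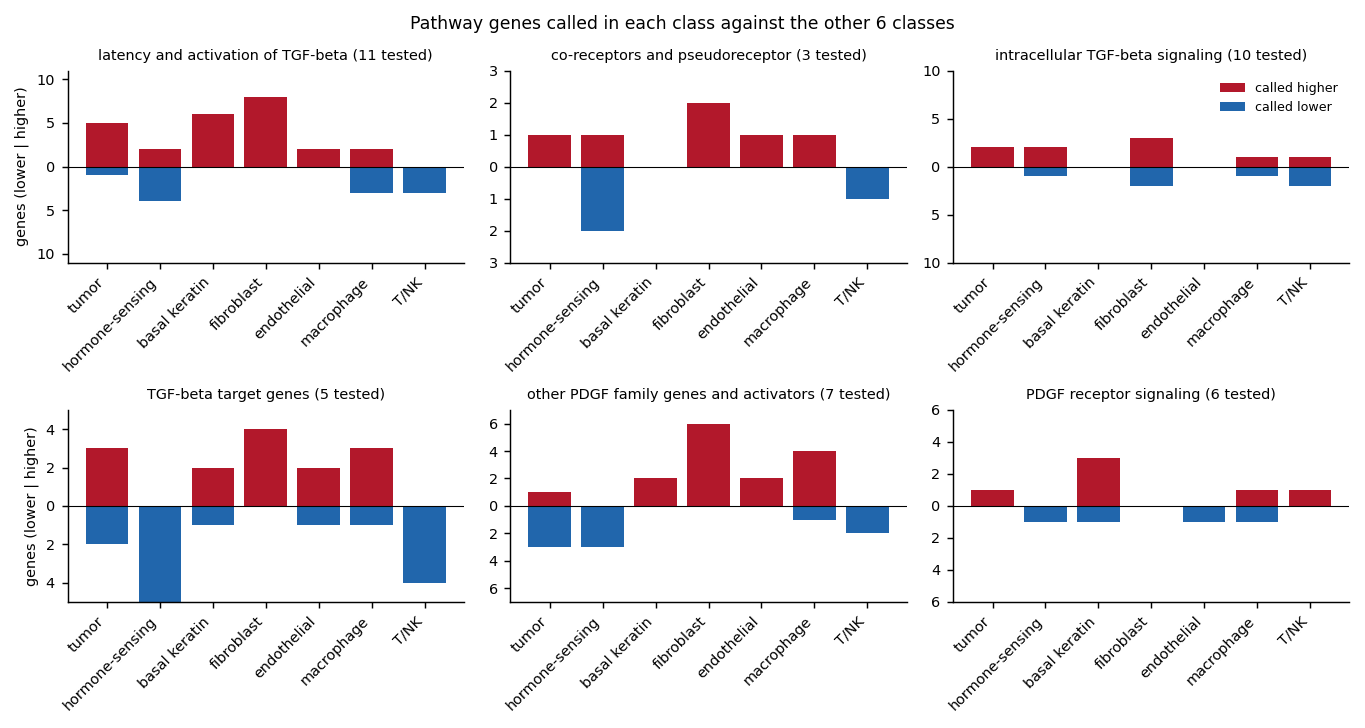
Number of pathway genes called higher or lower per cell class, by role (edgeR, adjusted p under 0.05). Of 42 genes, fibroblasts had 23 higher (54.8%, and 17.4% of all genes) and 2 lower (4.76%, and 4.19%), and hormone-sensing cells 5 higher (11.9%, and 19.6%) and 16 lower (38.1%, and 5.48%).

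Within tumor cells, ligand levels differed between clusters that were made without the 10 genes. These values are descriptions with no test. Tgfb2 was highest in the cluster led by Car6, Scgb2b27, Thrsp and the milk gene Lalba, at 94.3 to 200 CPM with a median of 120 (123 ± 36.4, n = 7), and was 55.5 to 94.9 CPM on average in the other clusters. That cluster was first for Tgfb2 in 3 of 7 mice. Tgfb3 had its lowest average there, at 64.6 to 145 CPM with a median of 111 (104 ± 30.5), against averages of 158 to 267 CPM elsewhere. Pdgfa was highest in a cluster led by Edn1, Csn1s1 and Krt14, which the markers did not name, at 43.6 to 237 CPM with a median of 86.6 (110 ± 72.7), and that cluster was first in 5 of 7 mice. Of its 522 cells 312 came from replicate 3, where it read 43.6 CPM and stood below 5 other clusters (63.4 to 143 CPM), and in the other 6 mice it held 2 to 9 UMIs of Pdgfa each, 3 of them behind the 237 CPM of replicate 8. The ranges of the clusters overlapped for all 3 genes.

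**Figure D5:**
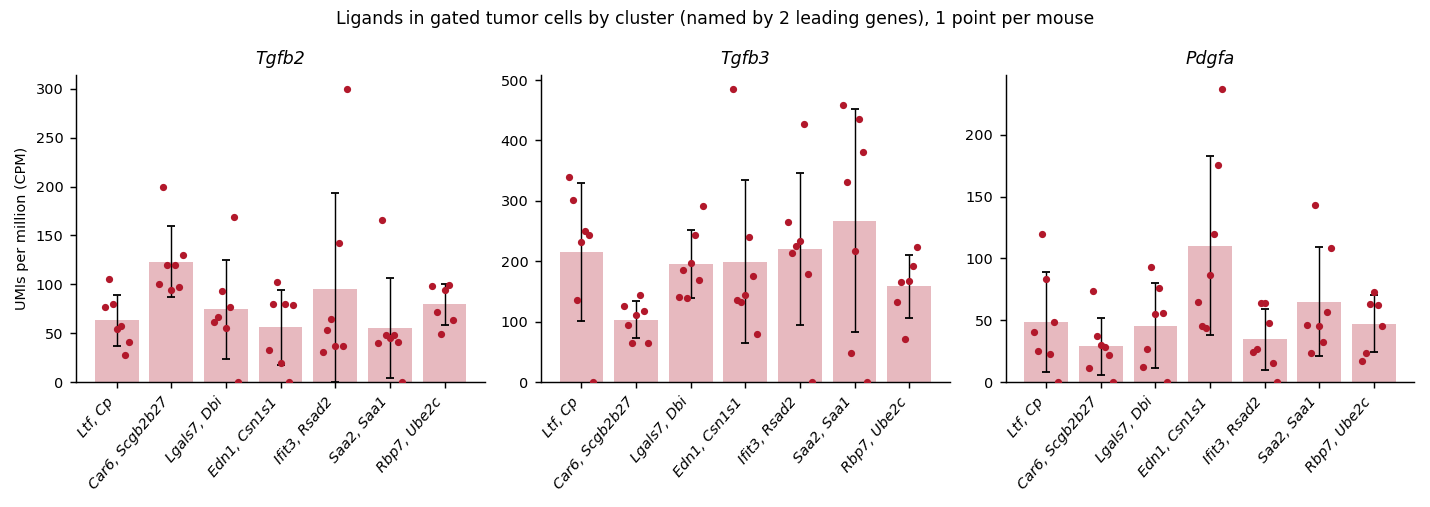
Levels of Tgfb2, Tgfb3 and Pdgfa in gated tumor cells by cluster, in CPM, with clusters named by 2 leading genes, bars for means over mice, error bars for SDs and points for mice. Tgfb2 averaged 123 CPM and Tgfb3 104 CPM in the cluster labeled Car6, Scgb2b27.

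The genes most alike in level over the 45 sums were found by Pearson's r on log2 CPM among 7976 genes, given as a description since sums of one mouse share a library. Pdgfra was most like Col5a1 (r = 0.958), Adamts5 (0.955) and Srpx (0.954). Tgfbr3 was most like Gas1 (0.916), Fndc1 and Fbn2, and Tgfbr2 like Gstm1 (0.862), Tppp3 and Htra3. Tgfbr1 was most like Creg1 (0.809), Cx3cr1 and Il1r2. Among the ligands, Tgfb3 was most like Gstm5 (0.831), Tgfb1 like Adgre5 (0.781) and Pdgfa like Tanc2 (0.699). Pdgfb and Pdgfrb had fewer than 200 UMIs and were left out.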

How the data were processed

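Drop-seq digital expression matrices of 7 control tumors were used, 1 per tumor. The authors aligned reads with STAR and deposited UMI counts per gene and barcode. The study's methods give mm10 with the PyMT transgene, while the submitters' processing notes name GRCh37.p13 and hg19. The deposited counts were raw. Of the matrices, 5 held no mitochondrial genes, which were dropped from the remaining 2. Barcodes with 200 to 6000 genes were kept. A cell was gated to a class with at least 3 UMIs from at least 2 of its markers and a relative share at least 2 times that of any other class. Doublets were not called, and cells rich in tumor markers outside the tumor class were left out as an alternative. Clusters were made with Seurat 5.3.0 (20 components, resolution 1) without the 10 genes and the pathway list.

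Counts were summed per mouse and class (at least 10 cells) and tested with edgeR 4.0.16 (TMM, quasi-likelihood, genes with at least 50 UMIs, mouse as a block, R 4.3.3), with DESeq2 1.42.0 and limma as alternatives. The block pairs sums of the same mouse, so the pairing follows from the source of the cells. Each replicate was 1 library of 1 tumor. Counts were also simulated for all 12786 genes, with chosen genes raised in fibroblasts and no other difference set between classes or mice. In the fibroblast comparison 26 of 100 genes changed 2-fold and 88 of 100 changed 4-fold were called. Over all 7 class contrasts 27 of 88102 unchanged tests were called. The simulation set no class empty of a gene, so it does not bear on that limit. Named genes were the 10 members, and of the pathway list at most the 2 largest calls of higher per class. The members and lists were chosen with earlier results of these data known. The genes most alike to Tgfb2 are not reported here.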

Additional observations from a re-analysis of the deposited data

Results flagged for a closer look

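In 35 groups of 7 mice with at least 20 UMIs, 3 levels stood apart from the other 6 mice by Dixon's ratio of the gap to the range (above 0.568), and chance alone sets about 1 in 20 groups apart. Tgfb2 in fibroblasts was highest in replicate 8 at 243.86 CPM from 77 UMIs, with the other mice at 11.3 to 66.2 CPM (ratio 0.764). Tgfb3 in fibroblasts was highest in replicate 4 at 128.79 CPM from 25 UMIs, with the others at 55.4 to 77.3 CPM (ratio 0.702). Tgfbr1 in tumor cells was lowest in replicate 8 at 0 CPM, 0 of 120691 UMIs, with the others at 18.0 to 26.8 CPM (ratio 0.671). A count of 0 there allows up to 24.9 CPM by counting error, a level that 2 of the other 6 mice exceeded.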

How the results depend on the processing

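Results were recomputed with one choice changed at a time. Members called lower numbered 5 in the CB tumors alone and 4 in the WT tumors alone, 17 with limma on log2(CPM + 10) and 25 by exact sign-flip on log2(CPM + 10), which also called 12 higher. The exact sign-flip test was run on the members alone and not adjusted. Its counts of 25 and 12 therefore have no share of all genes beside them and are not comparable with the adjusted counts. The exact sign-flip test cannot go below p = 0.0156 for 7 mice or 0.25 for the 3 endothelial sums, where it could call nothing. Pathway genes called lower numbered 21 with at least 500 genes per cell, 22 in CB, 15 in WT and 71 with limma, where calls of lower over all genes numbered 2526, 1889, 1541 and 8908 against 4603 in the main analysis, and 46 were called higher in WT, where 6547 were over all genes (9173 tested) against 14451 (12786 tested). Leaving out a replicate gave 18 to 21 members higher, 8 to 12 lower, 62 to 75 pathway genes higher and 29 to 48 lower, the 29 without replicate 4, while over all genes 10718 to 13892 were higher and 2794 to 4431 lower, both lowest without replicate 4. Without the block, so with no pairing by mouse, 20 members were higher and 10 lower, 69 pathway genes higher and 37 lower, and 97 member pairs called, with 12936 higher and 3947 lower over all genes. Tgfbr1 in macrophages moved to 156 CPM with at least 500 genes per cell. Pdgfa in basal keratin cells moved to 313 CPM without the top 5% of cells by UMIs and to 336 CPM without cells rich in tumor markers, where Tgfb3 moved to 49.8 CPM. The levels of 336 and 49.8 CPM are means over fewer than 7 mice, from at most 65 cells. Pdgfb in basal keratin cells changed sign with the Acta2-high cluster in their place (−0.073421), and Pdgfra in basal keratin cells with limma (−0.14252) and by sign-flip on log2(CPM + 10) (−0.21003) and log2(CPM + 1) (−0.27887). Apart from these, the named calls kept their direction, 87 alternatives fell short of the threshold, 4 of them sign-flip tests in endothelial cells that could not pass it, and 748 did not, and 13 of 32 kept their call throughout. The causes were not tested. For 9 results, 17 tests of lower had no value because another class held 0 UMIs. The comparisons without tumor-rich cells, with the Acta2-high cluster, without the endothelial class and with limma were chosen after seeing the data. Depth limits the small sums: 1 UMI weighed 36.8 to 61.1 CPM in endothelial cells and 210 CPM in the T/NK cells of replicate 8.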

Other observations

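The cluster led by Mylk, Acta2 and Cnn1 held 273 cells and is described by those genes since it was not named. In 5 mice it had at least 10 cells. There Pdgfa stood at 144 to 553 CPM with a median of 188 (282 ± 173, SD, n = 5), and Tgfbr3 at 0 to 234 CPM with a median of 110 (131 ± 99.8). Tgfb3 read 32.5 to 103 CPM with a median of 84.9 (75.1 ± 26.4), and Tgfb2 21.3 to 195 CPM with a median of 61.6 (96.9 ± 77.6). Csn3 still stood at 13927 ± 8526 CPM in these cells, so milk transcripts were present there too.

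Among the small classes, pooled over mice and not tested, the 160 cells gated by monocyte and dendritic markers held 28 UMIs of Tgfb1 (211 CPM, exact Poisson 95% interval 140 to 304.5) and 0 of Pdgfb, and the 168 B cells held 15 UMIs of Tgfb1 (152 CPM, interval 85.2 to 251). The 23 cells gated by pericyte markers, a class that also held many fibroblast marker UMIs, held 7 UMIs of Pdgfa (295 CPM, interval 119 to 608) and 5 of Tgfb3 (211 CPM, interval 68.4 to 492). The intervals cover counting error only.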
